A study of Mus musculus with 6 samples.

Results

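A set of 10 mouse genes for proteins that set how long messenger RNAs last was followed in immature dendritic cells (imDCs) with and without fluid shear stress (FSS). They were taken by symbol from the expression table: Zfp36 (gene ID 22695), Zfp36l1 (12192), Zfp36l2 (12193), Zc3h12a (230738), Rc3h1 (381305), Btg1 (12226), Btg2 (12227), Tob1 (22057), Tob2 (57259) and Elavl1 (15568). All 10 were found among the 22899 genes of the table, and all 10 passed the filter on low values that left 10899 genes for testing. The imDCs, cells that sample antigen before they mature, were grown from bone marrow of male C57BL/6 mice aged 7 weeks, in medium holding IL-4 at 10 ng/ml beside 20 ng/ml of GM-CSF over 7 days, and purified by their surface CD11c. The FSS group was sheared in a cone-plate device at 10 dyn/cm2 for 3 h, and the static group, cultured without shear, was the control. There were 3 libraries per group, and both groups carry the replicate numbers 1, 2 and 3. What limits the model is that every cell came from 1 sex and 1 inbred strain and saw 1 shear level at 1 time. The question is which messenger RNAs differ between sheared and static imDCs.

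Many messenger RNAs of inflammation are short-lived because proteins bind their 3' untranslated region (3' UTR) and call in enzymes that shorten the poly(A) tail. ZFP36 (tristetraprolin), ZFP36L1 and ZFP36L2 bind AU-rich elements, Roquin-1 (Rc3h1) binds stem-loops, and both recruit the CCR4-NOT deadenylase. Regnase-1 (Zc3h12a) is an endonuclease that cuts at stem-loops, BTG and TOB proteins tether the deadenylase itself, and HuR (Elavl1) binds AU-rich elements and protects the transcript. In dendritic cells and macrophages these factors limit cytokines such as TNF.

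Both libraries numbered 3 stood apart from the other 4 libraries: deviations from the group means correlated at 0.87 between them and at -0.78 to -0.54 with the other numbers. Between 10390 and 10959 genes reached 1 FPKM in a library, and sequencing depth is unknown. Of 12 dendritic cell markers 9 passed the filter, Itgax (CD11c) among them, and Flt3, Cd209a and Xcr1 did not. In a limma fit with the replicate number as a block, 25.1% of all genes fell under FSS and 7.73% rose. Of those 9 markers 5 fell (Itgax, Ccr7, Dcstamp, Zbtb46 and Batf3) and 0 rose, and 3 fell when scaled as well (19.2% of all genes). Of 12 macrophage markers 2 rose and 3 fell with the block, and of 10 neutrophil markers 0 rose and 2 fell. The markers furthest from 0 in these lists were Mertk, a macrophage receptor (1.14 log2), and Cxcr2, a neutrophil receptor (-1.24 log2). They were chosen after their values were seen and do not stand for their lists. The median difference was 0.03 log2 in macrophage and 0.04 log2 in neutrophil markers, with 5 of 12 and 4 of 10 below 0. Summed macrophage markers ran from 777 to 912 FPKM in static and from 800 to 954 FPKM in FSS libraries (12 of 12 tested), and neutrophil markers from 365 to 573 FPKM and from 339 to 484 FPKM (10 of 12). Lymphoid, mast cell, erythroid and stromal markers summed to at most 15.4 FPKM, with Mcpt4 at 0 in all libraries. Plasmacytoid dendritic cell markers, of which 1 of 5 was tested (Tcf4), summed to 17.2 to 29.1 FPKM in static and 17.5 to 26.1 FPKM in FSS libraries. The part of cell composition in the values of the members and of the related lists was not tested.

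No decay factor changed past the test under FSS. Values are FPKM, fragments scaled by transcript length and library size, a unit inferred from the files. Nothing in the labels says that the libraries came from separate cultures or animals, so the p-values speak of the scatter among these libraries alone, and that scatter may be technical. With limma on log2(FPKM + 1) and Benjamini-Hochberg adjustment over all genes tested, 0 of the 10 rose and 0 fell at an adjusted p under 0.05, and 0 had an unadjusted p under 0.05. Of all genes tested, 0.853% were called higher and 0.862% lower, and 18.1% had an unadjusted p under 0.05. With the replicate number as a block (the paired fit) again 0 rose and 0 fell, where 7.73% of all genes were called higher and 25.1% lower. In that fit 5 of the 10 (Zfp36, Zc3h12a, Btg1, Btg2 and Tob1) had an unadjusted p under 0.05, a mark reached by 45.9% of all genes. Without the libraries numbered 3 both fits again called 0 of the 10, while the paired fit without number 2 called 2 lower, Btg1 (limma adjusted p = 0.0183) and Zc3h12a (0.0393). Of all genes, the paired fit called 17.9% lower without number 2, and 24.6% lower and 14.6% higher without number 3. In bulk RNA, fewer cells of a type and less RNA per cell cannot be told apart.

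Most members stood on the lower side, as did most genes. Of the 10, 9 had a log2 difference (FSS minus static) below 0, as did 65.8% of all genes, and the median difference over all genes was -0.12. The median of the 10 differences was -0.22. When libraries were scaled by their median ratio, 7 of the 10 were below 0 against 51.8% of all genes, and the medians became -0.10 for the members and -0.01 for all genes. In 7 of the 10 (Zfp36, Rc3h1, Btg1, Btg2, Tob1, Tob2 and Elavl1) FSS was below static in each of the 3 pairs of equal replicate number, a pattern seen in 47.3% of all genes, and in 0 it was above static in all 3 (17.1% of all genes). The static and FSS values did not overlap in 3 of the 10, Zfp36, Btg2 and Tob1, all lower under FSS, as in 20.4% of all genes, and 0 were apart on the higher side (5.10% of all genes).

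**Figure D1:**
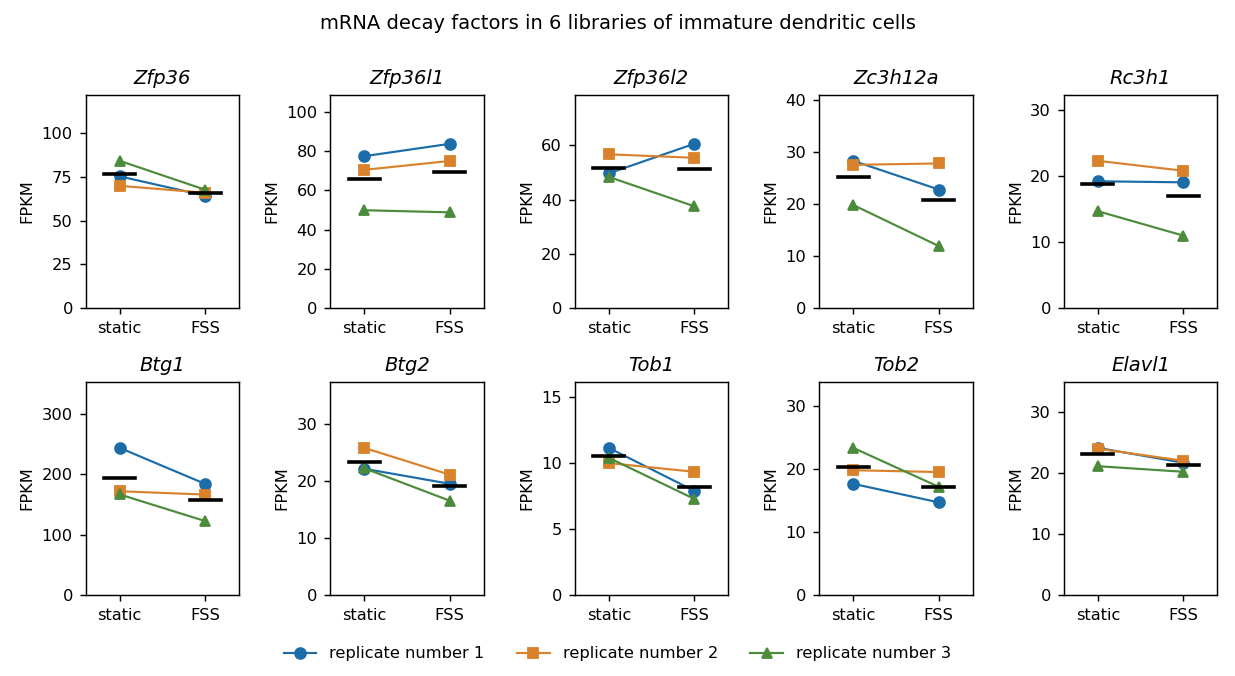
FPKM of the 10 decay factors (vertical axes, each from 0) in static and FSS libraries; coloured points are single libraries, lines join equal replicate numbers, and black bars are group means. Most lines slope down gently, and in Zfp36l1, Zfp36l2, Zc3h12a, Rc3h1, Btg1 and Elavl1 the library numbered 3 is the lowest of each group.

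Because FPKM is per length, levels can be compared between genes. In static cells Btg1 was the most abundant member at 194 ± 43.0 FPKM (SD, n = 3), which put it at percentile 96.8 of the genes tested. Zfp36 (76.5 ± 7.22 FPKM), Zfp36l1 (66.0 ± 14.3 FPKM) and Zfp36l2 (51.6 ± 4.47 FPKM) followed, and each overlapped its neighbour in this order. Zc3h12a (25.2 ± 4.7 FPKM), Btg2 (23.5 ± 2.09 FPKM), Elavl1 (23.0 ± 1.69 FPKM), Tob2 (20.3 ± 2.88 FPKM) and Rc3h1 (18.7 ± 3.83 FPKM) came next, and their neighbours overlapped as well. Tob1 was lowest at 10.5 ± 0.584 FPKM, below every static value of Rc3h1, and still at percentile 49.1 of the genes tested. The gaps between Btg1 and Zfp36 and between Zfp36l2 and Zc3h12a also held in every static library. Summed over the 10 genes, static libraries held 568, 498 and 460 FPKM and FSS libraries 498, 483 and 360 FPKM for numbers 1, 2 and 3, so the groups overlapped.

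Several members carry in their own 3' UTR a form of the element that the ZFP36 proteins bind. The nonamer UUAUUUAUU was searched in the longest annotated 3' UTR of each gene (GENCODE M21, GRCm38), and 5 of the 10 members held it. Zfp36, Zfp36l1, Zfp36l2 and Rc3h1 held 1 each, Elavl1 held 8, and Zc3h12a, Btg1, Btg2, Tob1 and Tob2 held none. Of these last genes, Btg2 and Tob2 held 1 copy each of the shorter UAUUUAU, which lies within the nonamer, and the rest held none. The copy in Zfp36 starts at base 592 of a 3' UTR of 777 bases, that in Zfp36l1 at 1407 of 1838, that in Zfp36l2 at 824 of 1825 and that in Rc3h1 at 2259 of 7184. The nonamer occurred in 8.06% of 10682 tested genes with a 3' UTR. The following windows show 1 site per member and, for comparison, sites of transcripts that are known targets of these factors, with the nonamer in capitals.
Zfp36: augacgacuUUAUUUAUUguauuaaga
Zfp36l1: acuguuggaUUAUUUAUUuuagaaauu
Zfp36l2: cuauuuaacUUAUUUAUUaucuuguga
Rc3h1: cuuuacucaUUAUUUAUUgagaugagg
Elavl1: ucaugaaaaUUAUUUAUUuauuuauuu
Tnf: auuuauuauUUAUUUAUUugcuuauga
Plk3: ggaccacuuUUAUUUAUUaacagacau
Cxcl2: agaguucacUUAUUUAUUuaucuaugu
Ptgs2: ugaccauauUUAUUUAUUuaugugaag
Vegfa: uguuaucauUUAUUUAUUggugcuacu
The sites in Zfp36, Zfp36l1, Zfp36l2 and Rc3h1 are the only copy in their 3' UTR, while Elavl1 and Tnf hold runs of copies that overlap. A match shows the letters of the element and not binding.

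Zfp36, which encodes the founding AU-rich element binder tristetraprolin, stood at 75.3, 69.9 and 84.2 FPKM in static replicates 1, 2 and 3 and at 64.3, 66.0 and 67.7 FPKM in the FSS replicates. All FSS libraries were below all static ones, and the FSS libraries were close to each other. The log2 difference was -0.21 ± 0.15 (SE; 95% interval -0.57 to 0.15; limma adjusted p = 0.552, and 0.108 with the block). The pair differences were -0.23, -0.08 and -0.31 log2, and scaling moved the mean difference to -0.08. Zfp36 is known as an immediate early gene that inflammatory signals and serum induce, and after 3 h of shear it stood at 0.863 times its static level.

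Its relatives overlapped between the groups. Zfp36l1, a relative with roles in lymphocyte and myeloid differentiation, gave 77.5, 70.5 and 49.9 FPKM in static and 83.8, 75.03 and 48.8 FPKM in FSS libraries. The libraries numbered 3 were the lowest in both groups, and the groups overlapped almost completely. Its log2 difference was 0.06 ± 0.26 (SE; 95% interval -0.54 to 0.66; limma adjusted p = 0.943). Zfp36l2, the other relative, gave 49.7, 56.7 and 48.4 FPKM in static and 60.5, 55.4 and 37.5 FPKM in FSS libraries, and FSS replicate 1 was the highest of the 6 libraries and FSS replicate 3 the lowest. Its log2 difference was -0.04 ± 0.21 (SE; limma adjusted p = 0.957), with pairs at 0.28, -0.03 and -0.36, and it turned to 0.08 with median-ratio scaling.

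Within the family, the libraries numbered 3 had the highest share of Zfp36 and the lowest of Zfp36l1. The summed level of the 3 genes was 194 ± 10.3 FPKM in static and 186 ± 28.6 FPKM in FSS cells. Zfp36 made up 46.1% and 43.9% of this sum in static and FSS replicate 3, and 30.8% to 37.2% in the other 4 libraries. Zfp36l1 made up 27.3% and 31.7% in the libraries numbered 3 and 35.8% to 40.2% in the others. The share of Zfp36l2 was 26.6% ± 2.12 in static and 27.2% ± 2.49 in FSS libraries.

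Both stem-loop factors were lowest in the libraries numbered 3. Zc3h12a, the endonuclease Regnase-1, gave 28.3, 27.6 and 19.8 FPKM in static and 22.8, 27.8 and 11.9 FPKM in FSS libraries. FSS replicate 3 was far below the rest, FSS replicate 2 was close to its static partner, and the groups overlapped. The log2 difference was -0.33 ± 0.31 (SE; 95% interval -1.04 to 0.39; limma adjusted p = 0.661, and 0.104 with the block), and without FSS replicate 3 it was 0.01. Rc3h1, the RING-type stem-loop binder Roquin-1, gave 19.2, 22.3 and 14.6 FPKM in static and 19.0, 20.8 and 11.0 FPKM in FSS libraries. Both libraries numbered 3 were lowest, and the log2 difference of -0.17 ± 0.27 (SE; limma adjusted p = 0.822) turned to 0.10 without FSS replicate 3. Against numbers 1 and 2, the libraries numbered 3 averaged -0.75 log2 in Zc3h12a, -0.64 in Rc3h1, -0.62 in Zfp36l1, -0.40 in Btg1 and -0.37 in Zfp36l2. They averaged -0.19 in Btg2, -0.14 in Elavl1 and -0.12 in Tob1, and were higher in Zfp36 (0.13) and Tob2 (0.16), while the median gene gave -0.12.

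The 4 BTG and TOB members had a difference below 0 in every pair, while their relative Btg3, no member, stood above 0 in every pair (0.11, 0.39 and 0.05 log2; limma adjusted p = 0.223 when paired). Btg1, an antiproliferative adaptor of the deadenylase that is abundant in resting leukocytes, gave 243, 172 and 166 FPKM in static and 184, 166 and 122 FPKM in FSS libraries. Static replicate 1 was high, FSS replicate 3 was low, and the values between them overlapped. The log2 difference was -0.30 ± 0.23 (SE; 95% interval -0.82 to 0.23; limma adjusted p = 0.565, and 0.0514 with the block). In the 2 pairs numbered 1 and 3 it was -0.40 and -0.44, and in pair 2 it was -0.05.

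Btg2, a p53 and growth factor responsive relative, gave 22.2, 25.9 and 22.3 FPKM in static and 19.6, 21.2 and 16.6 FPKM in FSS libraries. Every FSS library was below every static one, with pairs at -0.17, -0.28 and -0.40 log2. The log2 difference was -0.29 ± 0.17 (SE; 95% interval -0.67 to 0.10; limma adjusted p = 0.427, and 0.0545 with the block). Tob1, which joins the deadenylase to the poly(A)-binding protein, gave 11.1, 9.99 and 10.4 FPKM in static and 7.89, 9.33 and 7.28 FPKM in FSS libraries. The groups did not overlap, and at 0.777 times its static level it had the lowest ratio of the 10. Its log2 difference was -0.33 ± 0.16 (SE; 95% interval -0.70 to 0.03; limma adjusted p = 0.319, and 0.0535 with the block), placing it at percentile 23.8 of all differences.

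Tob2, the second TOB adaptor, gave 17.7, 19.8 and 23.4 FPKM in static and 14.7, 19.5 and 17.2 FPKM in FSS libraries, with overlap between the groups. Its difference was -0.23 ± 0.18 log2 (SE; limma adjusted p = 0.576). With the block plus median-ratio scaling, which called 16.5% of all genes higher and 19.2% lower, 0 of the 10 members rose and 0 fell. In that fit Tob1 came to -0.22 (95% interval -0.44 to -0.01; limma adjusted p = 0.101), Btg2 to -0.17 (adjusted p = 0.145) and Btg1 to -0.17 (adjusted p = 0.231). Btg1 held 75.7% ± 4.42 of the summed level of Btg1, Btg2, Btg3, Tob1 and Tob2 in static and 74.9% ± 3.4 in FSS cells. Btg3 held 2.57% ± 0.211 and 3.61% ± 0.287, with no overlap between the groups.

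Elavl1, whose product HuR opposes the others on AU-rich transcripts, stayed between 20.2 and 24.1 FPKM in all 6 libraries. It gave 24.1, 23.9 and 21.1 FPKM in static and 21.7, 21.97 and 20.2 FPKM in FSS libraries. The log2 difference was -0.11 ± 0.15 (SE; 95% interval -0.46 to 0.24; limma adjusted p = 0.786), close to that of the median gene, and 0.01 after scaling.

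**Figure D2:**
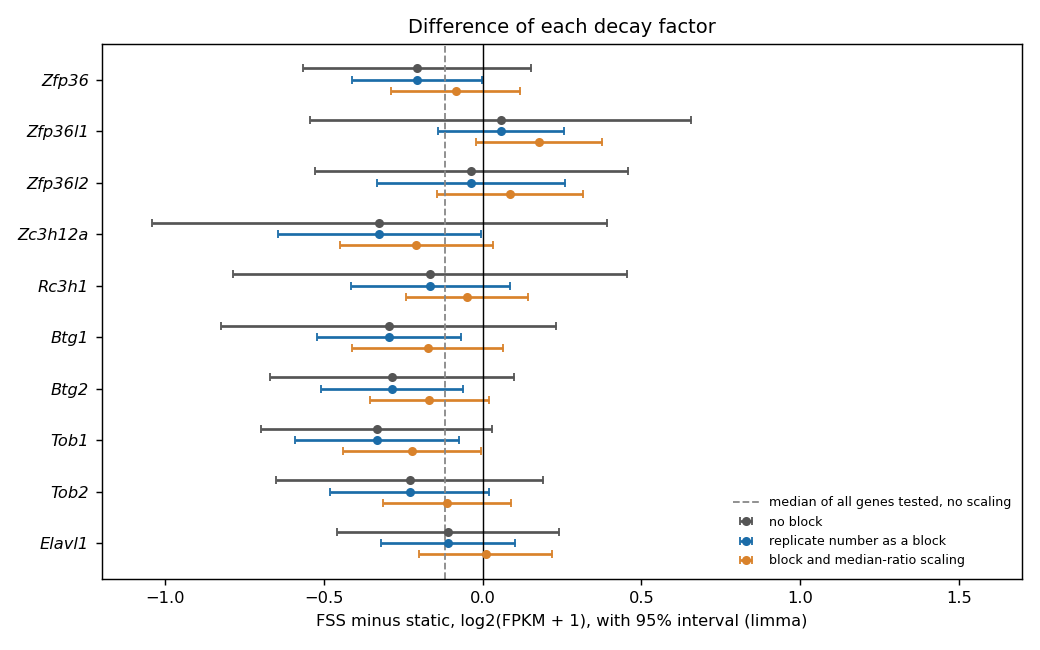
FSS minus static difference of each decay factor on the log2(FPKM + 1) scale (horizontal axis) with 95% intervals from limma, without a block, with the replicate number as a block, and with block and median-ratio scaling; the dashed line is the median of all genes tested, -0.12. The unblocked intervals all include 0, and the block narrows them around the same estimates. With the block, those of Zfp36, Zc3h12a, Btg1, Btg2 and Tob1 lie below 0, and with scaling too that of Tob1 alone. No adjusted p of these fits is under 0.05.

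The intervals speak of the scatter among these libraries alone, and those with the block rest on pairs read from the same data. With the block, the widest was that of Zc3h12a (-0.64 to -0.01 log2) and the lowest bound of the other 9 was -0.59, in Tob1. A difference of -1 on the log2(FPKM + 1) scale thus lay outside the blocked 95% interval of each of the 10, whereas without the block the interval of Zc3h12a reached it. A difference of 1 on that scale lay outside all intervals of both fits.

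Genes with the most similar profile over the 6 libraries were named by rule for 3 members, as a description, from 8647 genes. For Zfp36 they were Dph3, Eml2 and Trex1, with a likeness (Pearson r of log2 values) of 0.995, 0.994 and 0.993. For Zc3h12a they included Vezt and Gxylt1 (0.997 each), and 418 genes reached 0.95. For Btg2 they were Matk, Sin3a and Bms1 (0.996, 0.993 and 0.992), and 213 genes reached 0.95, against 72 for Zfp36. The 6 points share the shear, the replicate number and the scaling of each library.

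Across all genes with a 3' UTR, those with and without the nonamer had close medians. The median difference was -0.11 log2 in the 861 genes with the nonamer and -0.12 in the 9821 without, and the 187 genes with 2 or more copies gave -0.18. With the block, 26.7% of genes with the nonamer and 25.3% of those without were called lower, and 8.94% and 7.50% higher. The 3' UTRs differed in length as well, with medians of 2361 bases and 1073 bases.

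Promoters were read from 250 bases before to 50 after the start for the 9 members found (RefSeq, GRCm38.p6; Zfp36l2 was not among them), on both strands. The site TGANTCA of AP-1 was in those of Rc3h1 and Zfp36l1 (7.81% of 32851 promoters), and TGACGTCA, the cyclic AMP element, in that of Btg2 (1.79%). The EGR site GCGNGGGCG was in those of Zfp36 and Btg2 (5.55%), and a CArG box, the site of serum response factor, in that of Zfp36 (1.63%). The heat shock element was in 0 of the 9 (0.603% of promoters) and the NF-kB site likewise (0.411%). These are matches of letters only.

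Known targets of the members rose and fell in the paired fit. Of 33 listed targets 31 passed the filter. Without the block 3 fell and 0 rose, beside 0.862% and 0.853% of all genes. An unadjusted p under 0.05 was found in 14, beside 18.1% of all genes. With the block 12 fell and 7 rose, beside 25.1% and 7.73% of all genes. With scaling too 12 fell and 8 rose, beside 19.2% and 16.5% of all genes. Without number 1, 2 and 3 the paired fit called 12 lower each time and 6, 6 and 11 higher. Of all genes, those fits called 15.1%, 17.9% and 24.6% lower and 4.4%, 5.17% and 14.6% higher. The chemokine genes Ccl3 (929 ± 168 to 255 ± 28.4 FPKM) and Ccl4 (1048 ± 86.8 to 457 ± 9.85 FPKM) and the growth regulator Myc (39.1 ± 3.71 to 12.3 ± 3.38 FPKM) fell, with limma adjusted p-values of 0.0133, 0.0167 and 0.0203. Ccl4 and Myc kept their call in 1 of 6 fits with 1 library left out, that without FSS replicate 3, and Ccl3 in 3, those without static replicate 2, static replicate 3 or FSS replicate 3. The other targets named here were chosen after their values were seen. Tnf, the target that first defined ZFP36, gave 143, 87.4 and 124 FPKM in static and 76.2, 68.0 and 74.6 FPKM in FSS libraries and fell with the block (limma adjusted p = 0.00533, against 0.158 without it). Cxcl2, a neutrophil attractant, rose with the block from 25.7 ± 5.53 to 55.9 ± 19.3 FPKM (limma adjusted p = 0.00539, against 0.105), as did Ptgs2, the inducible cyclooxygenase, from 7.41 ± 4.41 to 17.3 ± 8.87 FPKM (limma adjusted p = 0.000643, against 0.291). Targets with the nonamer went both ways: of 13, 5 rose and 3 fell with the block, and of the 18 without it 2 rose and 9 fell. Lack of the nonamer is not lack of every AU-rich site. Of the 18, Ccl2, Nfkbiz, Nfkbid, Tnfrsf4, Myc, Il2ra and Ets1 held no copy of the shorter UAUUUAU, and the rest held 1 to 4.

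**Figure D3:**
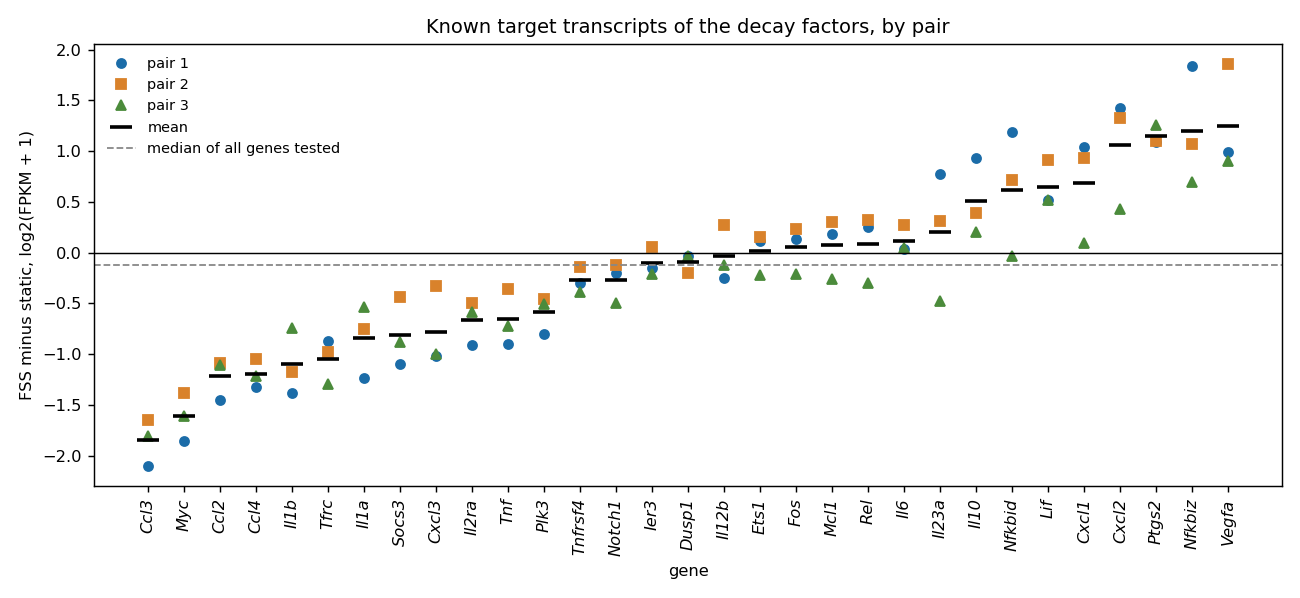
FSS minus static difference on the log2(FPKM + 1) scale (vertical axis) of the 31 known target transcripts of the decay factors, one point per pair of equal replicate number, with the mean as a bar and the median of all genes tested as a dashed line. Ccl3 and Myc have the lowest means, and Cxcl2, Ptgs2, Nfkbiz and Vegfa have means above 1.

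The enzymes that the members call in are described by complex. In the CCR4-NOT deadenylase 0 of 12 genes passed without the block, and 1 had an unadjusted p under 0.05, beside 18.1% of all genes. With the block 3 fell (Cnot3, Cnot9 and Cnot11) and 0 rose, beside 25.1% and 7.73% of all genes. With block and scaling 2 rose (Cnot4 and Cnot6l) and 1 fell (Cnot11), beside 16.5% and 19.2% of all genes. The paired fits without number 1, 2 and 3 called 0, 1 and 2 lower (15.1%, 17.9% and 24.6% of all genes). They called 0, 0 and 1 higher (4.4%, 5.17% and 14.6% of all genes). Cnot7 and Cnot8, the catalytic subunits that BTG and TOB proteins bind, did not pass. Cnot7 gave 14.2 ± 2.54 FPKM in static and 13.2 ± 3.73 FPKM in FSS cells (limma adjusted p = 0.861), and Cnot8 gave 11.1 ± 0.937 and 12.2 ± 1.10 FPKM (adjusted p = 0.744). These were chosen after their values were seen. Among 8 genes of PAN2-PAN3, PARN and poly(A) binding 0 passed without the block (0 at an unadjusted p under 0.05). With it Paip2, an inhibitor of the poly(A)-binding protein, and Noct rose, beside 7.73% of all genes, both also when scaled (16.5% of all genes). Without number 1, 2 and 3 the paired fit called 0, 1 and 3 of the 8 higher, beside 4.4%, 5.17% and 14.6% of all genes. Of 19 genes of decapping and exonuclease decay 0 passed without the block (1 unadjusted), and 3 subunits of the LSM ring (Lsm1, Lsm2 and Lsm7) fell with it, a share below that of all genes. Scaled as well, 2 of the 19 rose (Dcps and Patl1) and Lsm7 alone fell, beside 16.5% and 19.2% of all genes. Lsm7 alone was also called lower in each of the 3 paired fits that left out a number.

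Most genes of the RNA exosome, which digests the body of deadenylated transcripts, fell in the paired fit, as did 5 of 9 dendritic cell markers. Without the block 0 of 15 exosome and SKI genes passed in limma, and 8 had an unadjusted p under 0.05, against 18.1% of all genes. With the block 12 fell and 0 rose, against 25.1% lower over all genes. With block and scaling 12 fell too, against 19.2%. When 1 pair was left out of the blocked fit, 8, 9 and 12 fell (without number 1, 2 and 3), against 15.1%, 17.9% and 24.6% of all genes. The median of the 15 differences was -0.45 log2. Exosc2, a subunit of the cap, gave 6.1, 6.52 and 8.33 FPKM in static and 3.06, 3.89 and 4.29 FPKM in FSS libraries (0.0864 unpaired and 0.00226 paired, as limma adjusted p). Dis3, a catalytic subunit, went from 5.23 ± 0.359 to 3.16 ± 0.461 FPKM (0.106 unpaired, 0.00518 paired, both limma adjusted p). The 3 genes not called with the block were Exosc7, Skiv2l and Dis3l. With 1 pair left out, their blocked differences ran from -0.52 to -0.25, -0.25 to -0.01 and -0.07 to 0.003 log2, in that order.

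No close relative or regulator passed without the block. Of 21 relatives and other AU-rich element binders 14 were tested and 0 passed in limma without the block (1 unadjusted, beside 18.1% of all genes). With the block Upf1, the helicase that works with Regnase-1, Rc3h2, the paralog Roquin-2, and Khsrp fell, 3 of 14 beside 25.1% of all genes. With scaling too, Zc3h12c and Btg3 rose and Upf1 and Rc3h2 fell, beside 16.5% and 19.2% of all genes. Khsrp was not called with scaling (limma adjusted p = 0.148), nor in any of the 3 paired fits that left out a number. Rc3h2 gave 11.03 ± 2.45 FPKM in static and 7.94 ± 2.51 FPKM in FSS cells (limma: 0.437 unpaired and 0.0132 paired, as adjusted p), and like Rc3h1 it was lowest in the libraries numbered 3. Of 23 kinases, phosphatases, adaptors and proteases that act on the members 0 passed without the block (3 unadjusted) and 9 fell with it (25.1% of all genes), 7 when scaled (19.2%). Without number 1, 2 and 3 the paired fit called 2, 6 and 8 of them lower, beside 15.1%, 17.9% and 24.6% of all genes. Among them were Ywhaz and Ywhag, adaptors that hold phosphorylated ZFP36 (250 ± 18.5 to 156 ± 26.0 FPKM and 163 ± 18.5 to 113 ± 20.8 FPKM), for which limma's adjusted p was 0.00216 and 0.00441 when paired and 0.109 and 0.196 when not.

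**Figure D4:**
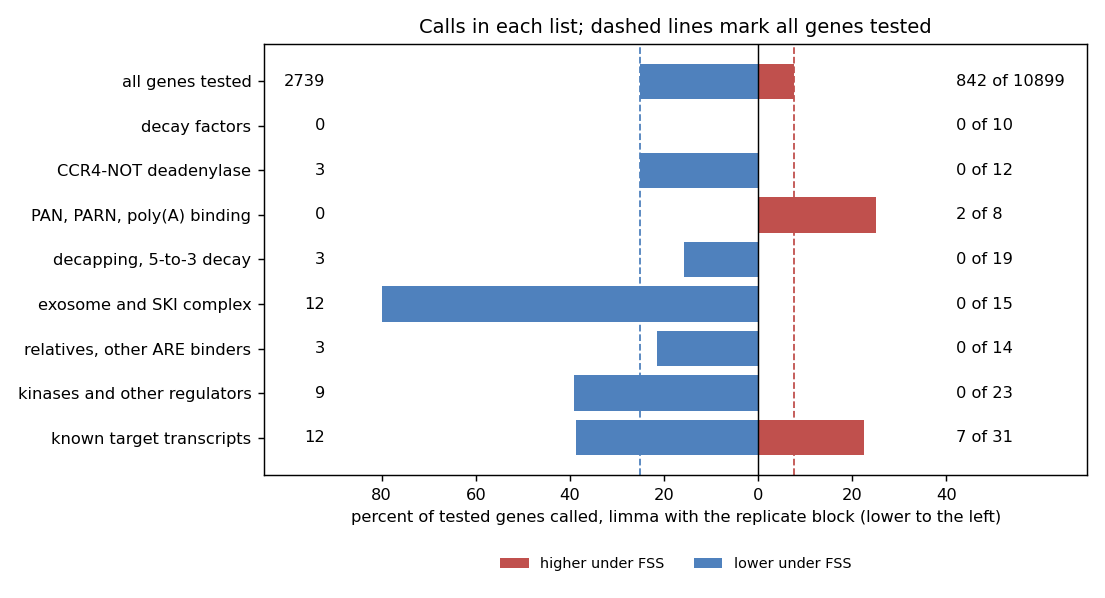
Percent of tested genes called by limma with the replicate block (horizontal axis; lower under FSS to the left, higher to the right) in the decay factors and 7 related lists, with the counts printed beside the bars and dashed lines at the percentages of all genes tested. The decay factors have 0 calls, and the exosome list has 12 of 15 lower.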

How the data were processed

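The authors deposited a table of the whole series and a table per sample, which held identical values for all 6 libraries. No header names a unit, and the deposited values were taken as FPKM by inference: value times transcript length summed to 0.552 to 0.609 (median lengths) or 1.14 to 1.28 (longest) times the total that FPKM implies. HISAT and Bowtie2 appear in the submitters' processing notes. The quantifier, build, annotation and strandedness: not given in the sources used here. The values of 4828 genes were blank. Depth is unknown.

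Samples were grouped by title. The filter kept genes with 1 FPKM in 3 or more libraries. FSS minus static was fitted on log2(FPKM + 1) with limma 3.58.1 in R 4.3.3 (variance trend, two-sided, Benjamini-Hochberg over 10899 genes, threshold 0.05), after the model was tested on simulated data. This scale understates the change of low genes. Ratios are of mean FPKM.

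Libraries of equal number deviated together from their group means (Pearson 0.79, 0.66 and 0.87 for numbers 1, 2 and 3), and on that ground, which is in the data and not in the labels, replicate numbers were treated as pairs.

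Members and lists were chosen with earlier results of these data known. Genes named are the 10 members, from each other list the 4 with the lowest adjusted p among those that passed (or 2 if none did), and the 3 most like Zfp36, Zc3h12a and Btg2, of which 1 for Zc3h12a is not reported here. Any others were chosen after their values were seen. Alternatives changed the pseudocount (0.1), filter, scaling, trend and block, or left out libraries or pairs.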

Additional observations from a re-analysis of the deposited data

How the results depend on the processing

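Without the block, 93 genes rose and 94 fell. With no filter these counts were 14 and 7. Median-ratio scaling gave 145 higher, equal totals gave 45 lower, the replicate block gave 842 higher and 2739 lower, and block with median-ratio scaling 1800 and 2096. Leaving out 1 library gave 3 (without static replicate 1) to 291 (without FSS replicate 3) higher and 0 to 176 lower, for the same libraries. Leaving out number 1, 2 or 3 in both groups gave 0, 4 and 402 higher and 0, 0 and 373 lower, and with the replicate block 480, 563 and 1594 higher and 1642, 1948 and 2676 lower. Of the 10 members 0 passed in any of these fits except the paired fit without number 2, where 2 fell, Btg1 (limma adjusted p = 0.0183) and Zc3h12a (0.0393). The block changed no other member's call. Zfp36, Btg1, Btg2, Tob1 and Tob2 stayed below 0 in all 19 alternatives. The other 5 changed sign in at least 1, Zc3h12a among them, whose difference of -0.33 was among the larger ones. Zfp36l1 ranged from -0.13 (without static replicate 3) to 0.29 (without FSS replicate 3) when 1 library was left out, and was also below 0 without FSS replicate 1 (-0.10) or 2 (-0.02). Zfp36l2 was 0.085 with median-ratio scaling, with or without the block, 0.029 with equal totals, 0.12 without number 3 in both groups, with or without the block, and -0.17 (without FSS replicate 1) to 0.17 (without FSS replicate 3) with 1 library left out. With 1 library left out, Zc3h12a ranged from -0.56 (without FSS replicate 2) to 0.014 (without FSS replicate 3), and Rc3h1 from -0.33 to 0.10 for the same libraries. Elavl1 was 0.0095 with median-ratio scaling, with or without the block. The cause was not tested. With 3 libraries a group and unknown depth, differences within the intervals given could not be resolved.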
